A study of Mus musculus with 36 samples.

Results

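Of the 18193 genes that a probe set on the array names alone, 8 were followed here because they carry out antigen presentation on major histocompatibility complex (MHC) class II: H2-Aa, H2-Ab1, H2-Eb1, H2-DMa, H2-Oa, H2-Ob, Cd74 and Ciita. They were chosen by symbol, the probe set with the highest mean over the 36 arrays stood for each gene, and all 8 were among the 14495 genes tested. The study measured RNA of 6 cell populations sorted by flow cytometry from enzyme-digested thymi of wild-type male C57BL/6J mice at 1, 3 and 6 months of age. The populations were thymic fibroblasts, epithelial cells of the cortex (cTEC), epithelial cells of the medulla with high CD80 and MHC-II (mTEChi) or with low CD80 and MHC-II (mTEClo), Sirpa+ dendritic cells (Sirpa+ DC) and Sirpa- dendritic cells (Sirpa- DC). Each population had 2 arrays at each age, 6 arrays in all, and all mice were of 1 genotype. Sample labels name 1 mouse per sample and the series text names 2 mice per age, so the populations of an age may share animals, and p-values measure the spread between these samples. Surface MHC-II was itself used to separate mTEChi from mTEClo, and the labels describe the DC gates by Sirpa alone.

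A class II molecule is a pair of chains, alpha and beta, that holds a peptide for CD4 T cells. H2-Aa and H2-Ab1 encode the chains of I-A, and H2-Eb1 encodes the beta chain of I-E, whose alpha chain C57BL/6 mice do not make. Cd74 encodes the invariant chain, which occupies the groove until lysosomal proteases cut it down. H2-DM then exchanges the remaining fragment for peptides, and H2-O, a dimer of the H2-Oa and H2-Ob products, binds H2-DM and restrains it. Ciita encodes the coactivator that docks on the promoters of these genes. In the thymus, class II on cTEC serves positive selection of CD4 T cells, and class II on medullary epithelium and DC serves deletion and the making of regulatory T cells.

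Class II promoters share an X box, bound by the RFX complex, and a Y box, bound by NF-Y, on which Ciita assembles. Promoter windows were at hand for 5 of the 8 members. H2-Ab1, Cd74 and Ciita had none and were not searched, so nothing is said of their boxes. The 120 bases before the RefSeq start are printed for the 4 members in which the letters of both boxes were found, read 5′ to 3′ on the gene's own strand (build GRCm38.p6), with GCAAC of the X box and GATTGG of the Y box in capitals.
H2-Aa: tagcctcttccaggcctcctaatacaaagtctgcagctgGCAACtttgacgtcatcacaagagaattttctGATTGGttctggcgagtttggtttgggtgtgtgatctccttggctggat
H2-Eb1: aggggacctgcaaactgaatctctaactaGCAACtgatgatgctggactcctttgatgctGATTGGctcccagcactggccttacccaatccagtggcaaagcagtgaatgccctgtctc
H2-Oa: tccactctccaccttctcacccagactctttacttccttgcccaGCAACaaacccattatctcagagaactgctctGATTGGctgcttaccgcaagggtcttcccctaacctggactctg
H2-Ob: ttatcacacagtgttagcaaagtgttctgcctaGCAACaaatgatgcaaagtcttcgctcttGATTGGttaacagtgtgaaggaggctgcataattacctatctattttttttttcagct
These stretches lie at chr17:34287824-34287943 on the minus strand for H2-Aa, and on the plus strand at chr17:34305747-34305866 for H2-Eb1, chr17:34092259-34092378 for H2-Oa and chr17:34238785-34238904 for H2-Ob. GCAAC followed within 15 to 30 bases by GATTGG, searched on both strands with no overlap between the motifs, occurred in 0.289% of the 32851 promoter windows of 250 bases before to 50 after a start. GATTGG alone occurred in 16.1% of them and GCAAC alone in 35.2%. The distance between the motifs was 27 bases in H2-Aa and H2-Oa, 26 in H2-Eb1 and 24 in H2-Ob. H2-DMa had windows at 2 starts, chr17:34122582-34122881 and chr17:34125268-34125567, and the pair in neither. Both windows lie within the gene's span of chr17:34119693-34139101 and at neither end of it. Other starts of H2-DMa were not searched, so whether the gene has the pair elsewhere is not known from this search. The letters are those known from class II promoters, so the matches are a description.

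All values are log2 signals per probe set, as deposited, so 1 unit is a 2-fold difference, and levels of different probe sets are not set against each other. The arrays' medians lay between 5.61 and 5.75. Marker lists followed the labels: thymic epithelial markers averaged 10.24 in cTEC, 10.96 in mTEChi and 10.21 in mTEClo, fibroblast markers 11.80 in fibroblasts, and DC markers 9.73 in Sirpa+ DC and 9.75 in Sirpa- DC. Cortical epithelial markers averaged 11.42 in cTEC, 8.97 in mTEChi and 8.10 in mTEClo, and medullary ones, Cd80 among them, 8.06, 10.50 and 9.65. Other cell types' markers were present in places. The 11 thymocyte markers averaged 10.18 in fibroblast arrays (8.63 to 10.99), and the 8 macrophage markers averaged 7.94 in mTEChi and 6.07 in mTEClo. In sorted bulk samples, fewer cells of a type and less RNA per cell cannot be told apart.

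On the probe sets kept, the epithelial and DC means of H2-Aa, H2-Ab1, H2-Eb1 and Cd74 lay within 1 log2 unit of each other for each gene. Those of H2-DMa, H2-Oa, H2-Ob and Ciita spread further. H2-Oa was highest in mTEChi, H2-Ob and Ciita were highest in Sirpa- DC, and H2-DMa was highest in Sirpa+ DC. Fibroblasts were lowest for all 8.

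**Figure D1:**
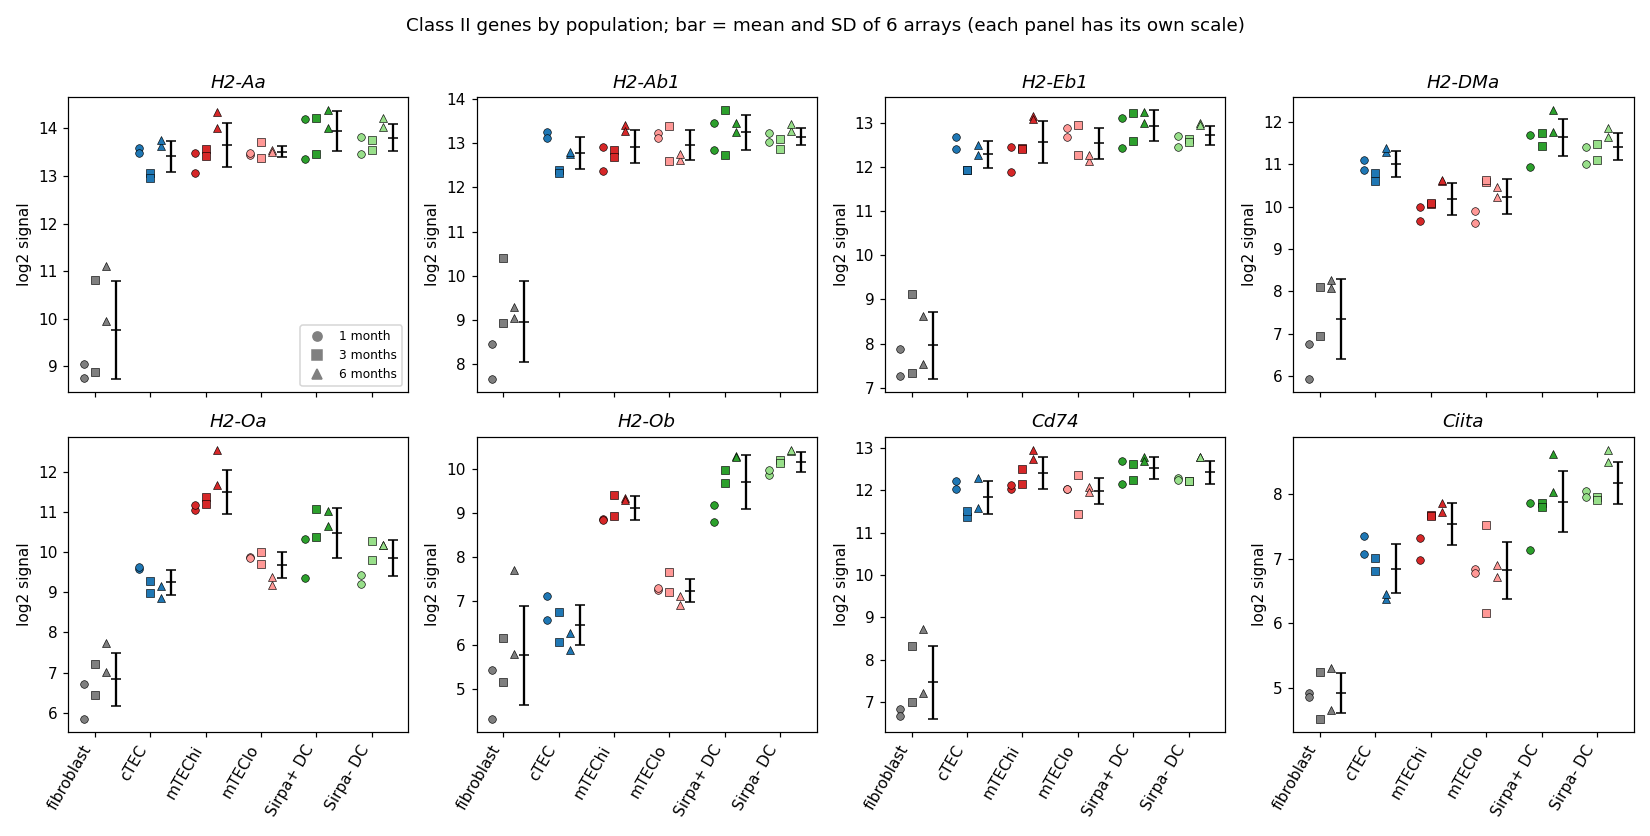
Log2 signal of the 8 class II genes (1 panel each, with its own vertical scale) in fibroblasts, cTEC, mTEChi, mTEClo, Sirpa+ DC and Sirpa- DC. Points are arrays, shapes mark age, and the black bar is the mean with the SD of 6 arrays. H2-Oa and H2-Ob in mTEChi stand above every mTEClo and cTEC array, while H2-Aa, H2-Ab1 and H2-Eb1 overlap between mTEChi and mTEClo.

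On their brightest probe sets, the chains of I-A and I-E were at similar levels in every population but fibroblasts. H2-Aa (chr17:34282744-34287823 in GRCm38.p6) averaged 9.76 ± 1.02 in fibroblasts, 13.41 ± 0.32 in cTEC, 13.65 ± 0.46 in mTEChi, 13.51 ± 0.12 in mTEClo, 13.94 ± 0.42 in Sirpa+ DC and 13.81 ± 0.28 in Sirpa- DC (SD, n = 6 each). Ordered by mean, no neighbouring pair among the 5 populations other than fibroblasts passed the test for any of the 3 chains, and all 6 fibroblast arrays lay below every other array. H2-Ab1 (chr17:34263227-34269418) ranged only from 12.78 in cTEC to 13.25 in Sirpa+ DC outside fibroblasts, and H2-Eb1 (chr17:34305867-34316674) from 12.29 to 12.93 in the same populations. The epithelial mean was lower than the DC mean by less than 2-fold for each of the 3 chains: -0.35 ± 0.15 for H2-Aa, -0.32 ± 0.13 for H2-Ab1 and -0.36 ± 0.14 for H2-Eb1 (SE, adjusted p = 0.0369, 0.0322 and 0.0262 in limma with Benjamini-Hochberg adjustment over all genes). Most dimmer probe sets spread further, with cTEC lowest outside fibroblasts. Those of H2-Aa ran from 9.87 to 11.14 and from 11.24 to 12.07 in Sirpa+ DC, and from 12.24 to 12.70 in Sirpa- DC. Those of H2-Ab1 ran from 10.40 to 11.49 and from 11.76 to 12.72 in Sirpa+ DC.

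On their brightest probe sets, RNA of these chains differed little between the medullary cells sorted as high and as low for surface MHC-II. H2-Aa was 13.06, 13.53 and 14.35 at the lowest, median and highest mTEChi array, against 13.38, 13.49 and 13.72 in mTEClo. H2-Ab1 was 12.38, 12.89 and 13.43 in mTEChi, against 12.59, 12.94 and 13.40 in mTEClo, and H2-Eb1 was 11.88, 12.44 and 13.15, against 12.14, 12.47 and 12.96. The groups overlapped for all 3. As surface MHC-II chose the cells, these values are a description: mTEChi minus mTEClo was 0.14 ± 0.23, -0.03 ± 0.20 and 0.03 ± 0.22 (SE) for H2-Aa, H2-Ab1 and H2-Eb1. Cd80, the costimulatory ligand that was the other sorting marker, averaged 8.83 ± 0.56 in mTEChi and 6.03 ± 0.35 in mTEClo (SD, n = 6 each). The level of H2-Aa was near the top of the table, whose highest value is 14.58. The 3 dimmer probe sets of H2-Aa gave 10.77 ± 0.51 in mTEChi and 10.20 ± 0.29 in mTEClo for one, and 11.68 ± 0.40 and 11.30 ± 0.16 for another, while the other gave 12.54 ± 0.47 and 12.48 ± 0.19. The dimmer probe sets of H2-Ab1 gave 12.10 ± 0.26 in mTEChi and 11.84 ± 0.09 in mTEClo, and 10.84 ± 0.20 and 10.42 ± 0.11. The probe sets of H2-Aa and the brightest and dimmest of H2-Ab1 carry suffixes that Affymetrix gives to sets sharing probes with other transcripts. Related class II genes may therefore add to their signal.

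Cd74 (chr18:60803849-60812652), like the chains it escorts, was called in no pair of the epithelial populations. Its levels were 12.02, 12.32 and 12.94 (lowest, median and highest array) in mTEChi, against 11.43, 12.03 and 12.36 in mTEClo and 11.36, 11.80 and 12.29 in cTEC, with overlap between all 3. Cd74 was -0.58 ± 0.21 (SE, adjusted p = 0.022) in cTEC minus mTEChi, which passed the p threshold but fell short of 2-fold, and 0.43 ± 0.21 (SE, adjusted p = 0.0944) in mTEChi minus mTEClo, which did not pass. Its level in mTEChi differed from the mean of both DC populations by -0.06 ± 0.18 (SE, adjusted p = 0.771).

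Both subunits of H2-O, the modulator of H2-DM, were higher in mTEChi than in either of the other epithelial populations. Between mTEChi and mTEClo, 2 of 8 members were called (adjusted p under 0.05 and at least 2-fold), both higher in mTEChi and both subunits of H2-O, where 11.8% of all genes tested were called higher. H2-Oa (chr17:34092379-34095234) was 11.04, 11.29 and 12.54 at the lowest, median and highest mTEChi array, against 9.18, 9.79 and 9.99 in mTEClo and 8.84, 9.21 and 9.63 in cTEC. Every mTEChi array was above every mTEClo and cTEC array, and H2-Oa rose by 1.83 ± 0.19 (SE, adjusted p = 1.33e-08) in mTEChi relative to mTEClo. H2-Ob (chr17:34238905-34245908) was 8.85, 9.12 and 9.42 in mTEChi, against 6.90, 7.22 and 7.67 in mTEClo and 5.88, 6.42 and 7.12 in cTEC. Here too the groups did not overlap, and the difference between mTEChi and mTEClo was 1.89 ± 0.24 (SE, adjusted p = 2.44e-07). Leaving out any 1 of the 12 mTEChi and mTEClo arrays kept both calls, with differences of 1.68 to 1.97 for H2-Oa and 1.80 to 1.97 for H2-Ob. The median log2 difference of the 8 members was 0.28 against -0.04 over all genes tested, and Ciita, at 0.72 ± 0.18 (SE, adjusted p = 0.00147), passed the p threshold but fell short of 2-fold. H2-DMa was at -0.06 ± 0.17 (SE). H2-Oa and H2-Ob were the members whose mTEChi and mTEClo arrays did not overlap, as was the case, with mTEChi higher, for 15.1% of all genes tested.

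In cTEC both subunits of H2-O were lower than in mTEChi, again the only members called of the 8, where 13.8% of all genes were called lower. H2-Oa was -2.25 ± 0.19 (SE, adjusted p = 2.24e-10) and H2-Ob -2.68 ± 0.24 (SE, adjusted p = 4.12e-10) in cTEC minus mTEChi. H2-DMa was higher in cTEC, at 0.84 ± 0.17 (SE, adjusted p = 0.000156), short of 2-fold, and its second probe set gave 0.32 (adjusted p = 0.135). H2-DMb2, the gene for a partner beta chain, was called in the opposite direction, at -1.13 ± 0.18 (SE, adjusted p = 7.07e-06). Ciita was at -0.69 ± 0.18 (SE, adjusted p = 0.00182), short of 2-fold, and H2-Aa, H2-Ab1 and H2-Eb1 were at -0.24 ± 0.23, -0.15 ± 0.20 and -0.28 ± 0.22 (SE). The median of the 8 members was -0.43 against 0.02 over all genes tested. Between cTEC and mTEClo limma called 0 of 8 members, with 3 at an unadjusted p under 0.05 and 8.01% of all genes called. The largest of these differences were 0.78 ± 0.17 (SE, adjusted p = 0.00106) for H2-DMa and -0.79 ± 0.24 (SE, adjusted p = 0.0131) for H2-Ob. H2-Oa was at -0.42 ± 0.19, H2-Eb1 at -0.25 ± 0.22, H2-Ab1 at -0.18 ± 0.20, Cd74 at -0.15 ± 0.21, H2-Aa at -0.10 ± 0.23 and Ciita at 0.03 ± 0.18 (SE).

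**Figure D2:**
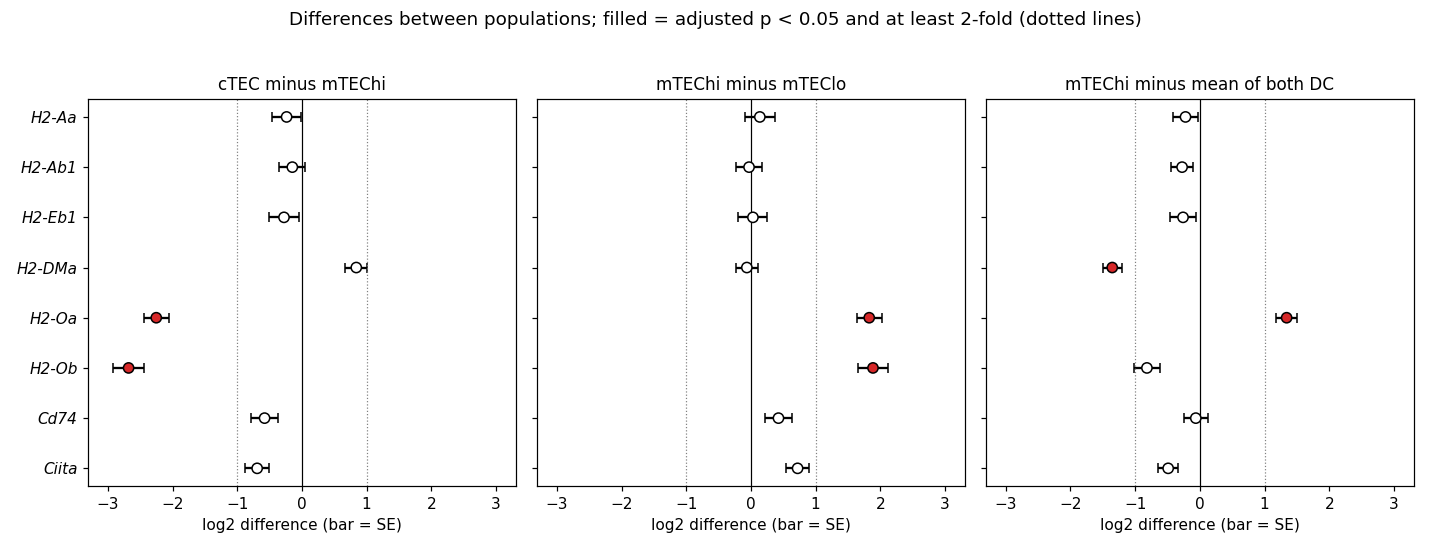
Log2 difference of each class II gene for cTEC minus mTEChi, mTEChi minus mTEClo, and mTEChi minus the mean of both DC populations, with SE from limma. Filled points were called (adjusted p under 0.05 and at least 2-fold): H2-Oa and H2-Ob in the first 2 panels, H2-DMa (lower in mTEChi) and H2-Oa (higher in mTEChi) against DC.

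Set against DC, mTEChi had less H2-DMa and more H2-Oa, while H2-DMb2, a gene for the beta chain that pairs with the H2-DMa product, was not lower. H2-DMa (chr17:34119693-34139101), the alpha chain of the peptide editor, was 9.66, 10.07 and 10.62 at the lowest, median and highest mTEChi array, against 10.93, 11.71 and 12.27 in Sirpa+ DC and 11.02, 11.44 and 11.87 in Sirpa- DC. No mTEChi array reached a DC array. For mTEChi minus the mean of both DC populations, H2-DMa was at -1.35 ± 0.15 (SE, adjusted p = 1.18e-08) and H2-Oa at 1.34 ± 0.17 (SE, adjusted p = 1.14e-07). These were the 2 of 8 members called, where 27.2% of all genes were called in either direction, and the median of the members was -0.27 against -0.03 over all genes tested. The second probe set of H2-DMa gave -1.34 (adjusted p = 5.11e-08). H2-DMb1, another beta chain gene, had no probe set that names it alone. The probe set of H2-DMb2 carries a suffix given to sets sharing probes with other transcripts, so related genes may add to its signal. H2-DMb2 averaged 10.73 ± 0.32 in mTEChi, against 10.30 ± 0.39 in Sirpa+ DC and 9.40 ± 0.39 in Sirpa- DC (SD, n = 6 each). It was called higher in mTEChi minus Sirpa- DC, at 1.33 ± 0.18 (SE, adjusted p = 5.23e-07), and was short of 2-fold in mTEChi minus Sirpa+ DC, at 0.43 ± 0.18 (SE, adjusted p = 0.0424). The other members were short of 2-fold in mTEChi minus DC, at -0.22 ± 0.20 for H2-Aa, -0.28 ± 0.18 for H2-Ab1, -0.26 ± 0.19 for H2-Eb1, -0.82 ± 0.21 for H2-Ob, -0.06 ± 0.18 for Cd74 and -0.49 ± 0.16 for Ciita (SE). H2-Oa was 9.37, 10.51 and 11.08 in Sirpa+ DC and 9.20, 9.99 and 10.28 in Sirpa- DC. The highest Sirpa+ DC array was above the lowest mTEChi array, and mTEChi minus Sirpa+ DC was 1.03 ± 0.19 (SE, adjusted p = 5.50e-05), where 17.7% of all genes were called higher. H2-Ob did not follow H2-Oa here: it was 8.79, 9.83 and 10.30 in Sirpa+ DC and 9.86, 10.17 and 10.44 in Sirpa- DC, and mTEChi minus Sirpa- DC was -1.05 ± 0.24 (SE, adjusted p = 0.000412), a call where 9.23% of all genes were called lower.

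The difference of H2-Oa and H2-DMa within each array varied by population. Its zero has no meaning, since the probe sets differ in brightness. Adding a constant to all log2 values of an array does not change this difference, while other scalings can. It was 1.32 ± 0.31 in mTEChi (SD, n = 6, 1.04 to 1.92), against -0.57 ± 0.58 in mTEClo (-1.29 to 0.26) and -1.77 ± 0.47 in cTEC. Fibroblasts had -0.52 ± 0.41, Sirpa+ DC -1.17 ± 0.31 and Sirpa- DC -1.57 ± 0.36. Every mTEChi array was above every array of the other 5 populations. The difference of H2-Ob and H2-DMa did not set mTEChi apart in this way. It was -1.05 ± 0.27 in mTEChi (SD, n = 6, -1.31 to -0.64) and -1.24 ± 0.25 in Sirpa- DC (-1.54 to -0.89). Fibroblasts had -1.60 ± 0.60 (-2.29 to -0.57), so both overlapped mTEChi, while every cTEC, mTEClo and Sirpa+ DC array lay below.

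**Figure D3:**
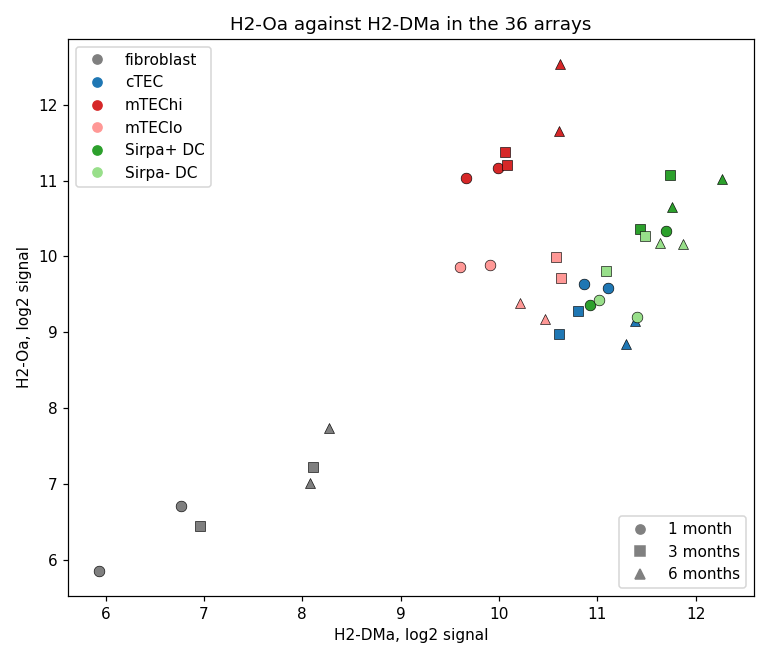
Log2 signal of H2-Oa (vertical) against H2-DMa (horizontal) in the 36 arrays, with colour for population and shape for age. The 6 mTEChi arrays have H2-Oa above all arrays but 1 of Sirpa+ DC, at H2-DMa signals of 9.66 to 10.62, a range in which mTEClo arrays also lie. Sirpa+ DC and Sirpa- DC arrays lie to their right.

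Markers of myeloid cells moved with H2-O in the medullary sorts. The 8 macrophage markers had a mean of 7.63 to 8.38 over mTEChi arrays, against 5.79 to 6.52 in mTEClo, and the 8 DC markers 6.12 to 6.77, against 5.72 to 6.09. The macrophage receptor gene Csf1r averaged 9.65 ± 0.49 in mTEChi and 6.76 ± 0.69 in mTEClo, and the integrin gene Itgax, a defining DC marker, 5.90 ± 0.23 and 5.51 ± 0.35 (SD, n = 6 each). In DC, Itgax averaged 11.16 ± 0.26 (Sirpa+) and 10.74 ± 0.24 (Sirpa-). The mean of H2-Oa was lower in each DC population than in mTEChi. The mean of H2-Ob was higher in each, at 9.71 (Sirpa+) and 10.17 (Sirpa-), against 9.12 in mTEChi. The 7 B cell markers averaged 6.27 in mTEChi and 5.43 in mTEClo. Of these 7, 5 or 6 were above the pooled median of 5.66 in each mTEChi array, against 1 or 2 in each mTEClo array. The B cell factor gene Pax5 differed from the list, with means below that median in both, at 5.24 ± 0.23 and 5.14 ± 0.10. The part of other cells in the H2-O difference was not tested.

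Ciita (chr16:10480014-10531064) was lower in epithelial cells than in DC by slightly less than 2-fold on its brightest probe set, and not on another. Its lowest, median and highest arrays were 6.37, 6.91 and 7.35 in cTEC, 6.98, 7.67 and 7.86 in mTEChi, 6.15, 6.80 and 7.52 in mTEClo, 7.13, 7.86 and 8.61 in Sirpa+ DC and 7.91, 8.0 and 8.68 in Sirpa- DC. All Sirpa- DC arrays were above all mTEChi arrays, and mTEChi overlapped both mTEClo and cTEC. The epithelial mean minus the DC mean was -0.96 ± 0.12 (SE, adjusted p = 5.20e-08), and mTEChi minus mTEClo was 0.72 ± 0.18 (SE, adjusted p = 0.00147), short of 2-fold. The dimmest of its 3 probe sets ordered the populations differently, with 7.07 ± 0.37 in mTEChi, 6.67 ± 0.38 in Sirpa+ DC and 6.48 ± 0.25 in Sirpa- DC, and an epithelial minus DC difference of 0.04 (adjusted p = 0.751). In the same contrast, H2-DMa at -1.05 ± 0.11 (SE, adjusted p = 4.34e-09) and H2-Ob at -2.34 ± 0.15 (SE, adjusted p = 4.57e-13) were called, 2 of 8 members, where 8.6% of all genes were called lower. Without the second 1-month Sirpa+ DC array 1 member was called. H2-Oa was at -0.02 ± 0.13 and Cd74 at -0.40 ± 0.14 (SE).

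Between Sirpa+ and Sirpa- DC, limma called 0 of 8 members, with 1 at an unadjusted p under 0.05 and 5.37% of all genes called. That member was H2-Oa, higher in Sirpa+ DC by 0.62 ± 0.19 (SE, adjusted p = 0.0211) and short of 2-fold. H2-Ob was at -0.47 ± 0.24 (SE, adjusted p = 0.195) in Sirpa+ DC minus Sirpa- DC and Ciita at -0.29 ± 0.18 (SE, adjusted p = 0.308). The macrophage markers moved with the sort, at 10.95 to 11.63 in Sirpa+ DC arrays, against 7.52 to 9.48 in Sirpa- DC. Their part in the H2-Oa value was not tested. The other 5 members lay between 0.09 ± 0.20 and 0.22 ± 0.17 (SE).

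Fibroblasts had the lowest mean of each member. Against cTEC, 7 of 8 members were called lower, where 12.2% of all genes were, from -1.93 ± 0.18 for Ciita to -4.36 ± 0.21 for Cd74 (SE). H2-Ob, low in cTEC as well, was -0.69 ± 0.24 (SE, adjusted p = 0.0161). All 8 members were called lower in fibroblasts than in mTEChi, where 17.6% of all genes were, and than in mTEClo, where 13.1% were. H2-Ob in the highest fibroblast array, 7.70, was above the highest cTEC array. The SD over fibroblast arrays was 0.31 for Ciita and 1.14 for H2-Ob.

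Other genes of the pathway were followed in 7 lists with 47 genes tested. Between mTEChi and mTEClo, 7 of the 47 were called higher and 3 lower, where 11.8% and 7.81% of all genes were. Among other class II genes, 1 of 3 was called, H2-Eb2, a further beta chain gene, higher by 2.68 ± 0.14 (SE, adjusted p = 4.17e-14). H2-Ea, the I-E alpha chain gene, averaged from 7.59 ± 0.44 in cTEC to 8.26 ± 0.30 in Sirpa- DC, with fibroblasts within that range at 7.65 ± 0.26 (SD, n = 6 each). Of the factors on the myeloid promoter of Ciita, Irf4 and Irf8, transcription factors of the interferon regulatory family, were higher in mTEChi by 2.28 ± 0.26 (SE, adjusted p = 5.34e-08) and 1.43 ± 0.19 (SE, adjusted p = 3.96e-07). Of the 7 genes of the RFX, CREB and NF-Y complexes, limma called 0 in mTEChi minus mTEClo, cTEC minus mTEChi and cTEC minus mTEClo, with 3, 5 and 2 at an unadjusted p under 0.05, where 19.6%, 23.8% and 8.01% of all genes were called in either direction.

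Lysosomal genes, which cut the invariant chain and antigens, were called in both directions between epithelial types. In mTEChi minus mTEClo, 3 of 11 were called higher and 1 lower, against 11.8% and 7.81% of all genes. Ctsh and Ctsz, cathepsins, were at 2.66 ± 0.28 (SE, adjusted p = 9.23e-09) and 1.66 ± 0.15 (SE, adjusted p = 4.64e-10), and Ifi30, the lysosomal thiol reductase, at 1.38 ± 0.17 (SE, adjusted p = 1.14e-07). Ctsl, the cathepsin that processes the invariant chain in cortical epithelium, was at -1.63 ± 0.31 (SE, adjusted p = 9.05e-05). In cTEC minus mTEChi, 2 of 11 were higher and 4 lower, against 9.99% and 13.8% of all genes: Prss16, the thymus-specific serine protease, was at 3.46 ± 0.16 (SE, adjusted p = 2.06e-15), Ctsl at 1.95 ± 0.31 (SE, adjusted p = 7.81e-06) and Ctsh at -4.09 ± 0.28 (SE, adjusted p = 2.29e-12). Macrophage markers, at 7.63 to 8.38 in mTEChi arrays against 5.79 to 6.52 in mTEClo, moved with this list too, and their part was not tested. Prss16 is also on the list of cortical markers used to check the labels.

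Genes that govern class II at the surface differed between epithelial cells and DC. Marchf1, the ubiquitin ligase that removes class II in DC, averaged 4.74 ± 0.25 in mTEChi, 4.12 ± 0.17 in mTEClo, 8.86 ± 0.56 in Sirpa+ DC and 9.39 ± 0.43 in Sirpa- DC (SD, n = 6 each). The epithelial mean minus the DC mean was -4.76 ± 0.08 (SE, adjusted p = 1.52e-24). Marchf8, the ligase with that role in thymic epithelium, was higher in the epithelial mean by 1.91 ± 0.13 (SE, adjusted p = 1.92e-12) and at -1.44 ± 0.21 (SE, adjusted p = 2.15e-06) in mTEChi minus mTEClo. Cd83, which opposes these ligases, averaged 10.79 ± 0.99 in cTEC, 8.96 ± 0.47 in mTEChi and 6.03 ± 0.64 in mTEClo, and cTEC minus mTEClo was 4.77 ± 0.37 (SE, adjusted p = 2.36e-10). Marchf1, Marchf8 and Cd83, all 3 of this list, were called between the epithelial and DC means, against 24.5% of all genes. Of the 14 class I presentation genes, limma called 0 in mTEChi minus mTEClo, with 11 at an unadjusted p under 0.05, where 19.6% of all genes were called.

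Genes whose pattern was most like the members were ranked by Pearson correlation over the 18 group means, a description with no test, since groups share populations. For the mean of H2-Aa, H2-Ab1 and H2-Eb1 the 5 highest were Mreg (r = 0.965), Spint1, H2-DMb2, Met and Usp18, but without the fibroblast groups their r lay between 0.0671 and 0.173 over 15 groups. For the mean of H2-Oa and H2-Ob they were Cd40 (r = 0.953, and 0.938 without fibroblasts), Slc9a7, Snx10, Pgap6 and Serpinb6b. For Ciita they were Niban1 (r = 0.951, and 0.836 without fibroblasts), Shtn1, Kctd14, Tbc1d8 and Cfap126. Among the members, Ciita correlated with the other 7 at r between 0.85 and 0.915 over 18 groups, highest with Cd74. Without fibroblasts its r lay between 0.473 (H2-Oa) and 0.929 (H2-Ob).

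Over the mean of the 6 populations, 5 of 8 members rose from 1 to 6 months, where 14.9% of all genes rose: H2-Aa by 0.61 ± 0.16 (SE, adjusted p = 0.00504), H2-DMa by 0.80 ± 0.12 (SE, adjusted p = 2.75e-05), H2-Oa by 0.45 ± 0.14 (SE, adjusted p = 0.0118), H2-Ob by 0.52 ± 0.17 (SE, adjusted p = 0.0181) and Cd74 by 0.44 ± 0.15 (SE, adjusted p = 0.0253). H2-Ab1, H2-Eb1 and Ciita were at 0.22 ± 0.14, 0.25 ± 0.16 and 0.23 ± 0.13 (SE) and did not pass. On their second-brightest probe sets H2-Ab1 and Ciita did pass, at 0.32 (adjusted p = 0.0445) and 0.43 (adjusted p = 0.00632). On their dimmest probe sets neither passed. With quantile normalization 3 members passed, and H2-Oa and Cd74 were at adjusted p = 0.0506 and 0.154. The second probe set of H2-DMa gave -0.0818 (adjusted p = 0.647). The median change of the 8 members was 0.45 against -0.06 over all genes tested. With age and replicate number as a random block, Cd74 was at adjusted p = 0.057. A sign of RNA quality moved with age as well: the log2 difference of 3′ and 5′ control probe sets of Gapdh and Actb, which grows as transcripts are shortened, had a lower mean at 6 months than at 1 month in each population. At 1, 3 and 6 months it averaged 2.76, 2.11 and 1.79 in fibroblasts, 2.53, 1.99 and 2.00 in cTEC, and 2.01, 1.83 and 1.85 in mTEChi. The means were 2.67, 2.48 and 1.91 in mTEClo, 1.78, 1.75 and 1.47 in Sirpa+ DC, and 1.80, 1.72 and 1.42 in Sirpa- DC, and its part in the changes with age was not tested. From 3 to 6 months H2-Aa and H2-DMa rose by 0.48 ± 0.16 (SE, adjusted p = 0.0276) and 0.41 ± 0.12 (SE, adjusted p = 0.013), 2 of 8 where 15.5% of all genes rose, and with quantile normalization 0 members passed. With 1 array left out in turn, 1 to 4 members passed. From 1 to 3 months limma called 0 of 8 members, with 2 at an unadjusted p under 0.05 and 6.34% of all genes called.

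In mTEChi all 8 members were higher in both 6-month arrays than in both 1-month arrays, but limma called 0 of them, with 5 at an unadjusted p under 0.05. H2-Oa was 11.04 and 11.17 at 1 month, 11.37 and 11.20 at 3 months and 11.66 and 12.54 at 6 months. Its change from 1 to 6 months was 0.99 ± 0.34 (SE, adjusted p = 0.0611). H2-Eb1 was 12.45 and 11.88, 12.43 and 12.39 and 13.15 and 13.08 at 1, 3 and 6 months, a change to 6 months of 0.95 ± 0.39 (SE, adjusted p = 0.119). H2-Aa changed by 0.91 ± 0.40, H2-DMa by 0.79 ± 0.30, Cd74 by 0.77 ± 0.37, H2-Ab1 by 0.70 ± 0.35, Ciita by 0.64 ± 0.31 and H2-Ob by 0.47 ± 0.41 (SE). The second-brightest probe set of Ciita gave 1.10 (adjusted p = 0.0167), which passed, and its dimmest did not pass. The median change of the 8 members was 0.78 against 0.03 over all genes tested. Of all genes tested, 9.51% were called in this comparison, 6.17% higher, and 25.7% had 6-month arrays above 1-month arrays without overlap. Fitted without the fibroblast arrays, 5 members passed: H2-Aa, H2-Eb1, H2-DMa, H2-Oa and Cd74, with adjusted p from 0.014 to 0.046. Macrophage markers in mTEChi averaged 7.68, 7.92 and 8.22 at the 3 ages, and their part in these values was not tested. Of the 47 pathway genes, 8 were called higher and 1 lower, among them Nfyc and Nfyb of the NF-Y complex at 1.02 ± 0.21 (SE, adjusted p = 0.00266) and 1.12 ± 0.27 (SE, adjusted p = 0.0091), and B2m, the light chain of class I, at 0.96 ± 0.23 (SE, adjusted p = 0.00863).

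**Figure D4:**
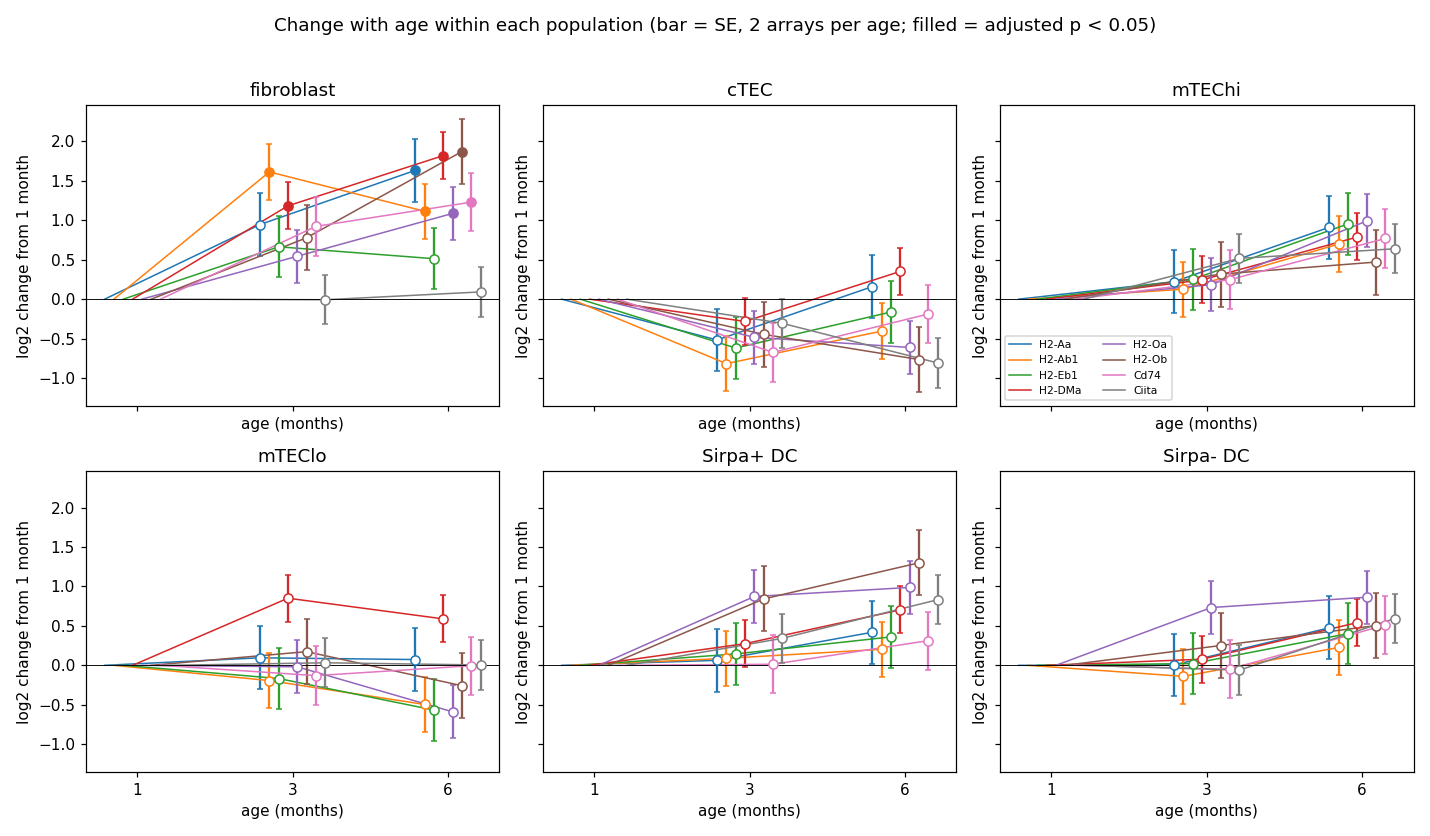
Log2 change from 1 month at 3 and 6 months for the 8 class II genes, 1 panel per population, with SE from limma (2 arrays per age). Filled points passed an adjusted p of 0.05. All of them are in fibroblasts, where 6 members at 6 months and 2 at 3 months passed. In mTEChi, Sirpa+ DC and Sirpa- DC all 8 changes at 6 months are above 0 and 0 passed.

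In Sirpa- DC all 8 members were again higher in both 6-month arrays than in both 1-month arrays, with 0 called by limma, 1 at an unadjusted p under 0.05, and 0.904% of all genes called. Such arrays were found for 27.4% of all genes. The 8 changes ran from 0.23 ± 0.35 for H2-Ab1 to 0.86 ± 0.34 for H2-Oa (SE). Macrophage markers in these arrays were 8.80 and 7.63 at 1 month and 9.41 and 9.48 at 6 months, and their part was not tested. In Sirpa+ DC, H2-Ob was 8.79 and 9.19 at 1 month, 9.98 and 9.69 at 3 months and 10.30 and 10.28 at 6 months, a change to 6 months of 1.30 ± 0.41 (SE, adjusted p = 0.102) that did not pass, where 2.06% of all genes did and 4 of 8 members had an unadjusted p under 0.05. This H2-Ob change passed in limma without the fibroblast arrays (adjusted p = 0.00292), with array weights (0.00523) and with only the Sirpa+ DC arrays fitted (0.0168). The second-brightest probe set of Ciita changed by 1.21 from 1 to 6 months in Sirpa+ DC (adjusted p = 0.0234), which passed, and its dimmest did not pass. In cTEC, 7 of 8 members had both 3-month arrays below both 1-month arrays, with 0 called, 1 at an unadjusted p under 0.05, and 5.4% of all genes called. Arrays of this kind were found for 34.4% of all genes. In the same arrays cortical markers were 12.33 and 11.63 at 1 month and 10.79 and 10.83 at 3 months, thymocyte markers 8.55 and 8.10 and 6.38 and 7.35, and the 3′ minus 5′ control 2.63 and 2.43 and 2.04 and 1.94. Their part in the change was not tested. In mTEClo, 0 members were called from 1 to 6 months and 0 had an unadjusted p under 0.05, and 6.42% of all genes were called. In the other 10 pairs of ages in these 5 populations limma called 0 members, with at most 1 in a pair at an unadjusted p under 0.05. Of all genes, it called 6.45% (1 to 6 months) and 3.84% (3 to 6 months) in cTEC, 0% (1 to 3 months) and 7.87% (3 to 6 months) in mTEChi, and 1.77% (1 to 3 months) and 2.39% (3 to 6 months) in mTEClo. The shares for 1 to 3 and 3 to 6 months were 0.331% and 1.23% in Sirpa+ DC, and 0.0345% and 0.29% in Sirpa- DC.

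Whether the change with age differed between populations was tested over 10 interaction contrasts. H2-Oa and H2-Ab1 passed, at adjusted p = 0.0417 and 0.0488, where 15.7% of all genes did. With 1 array left out in turn the count lay between 0 and 5, and it differed from 2 by over 1.5 times for 28 of the 36 arrays. With quantile normalization H2-Oa was at adjusted p = 0.0525. For H2-Oa, the change from 1 to 6 months was 0.99 ± 0.34 in mTEChi, 0.99 ± 0.34 in Sirpa+ DC, -0.61 ± 0.34 in cTEC and -0.59 ± 0.34 in mTEClo (SE). H2-Ab1 was at adjusted p = 0.271 without the fibroblast arrays. On its second-brightest and dimmest probe sets H2-Ab1 was at adjusted p = 0.0816 and 0.175. Ciita passed on its second-brightest probe set, at adjusted p = 0.0353. The change in the epithelial mean minus that in the DC mean was called for 0 of 8 members by limma, with 3 at an unadjusted p under 0.05 and 1.91% of all genes called.

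In fibroblasts, 6 of the 8 members rose with age, and the count rested on individual arrays. From 1 to 6 months these 6 were called higher, where 15.8% of all genes were, and the median change of all 8 was 1.17 against -0.07 over all genes tested. H2-Aa was 8.75 and 9.05 at 1 month, 8.89 and 10.81 at 3 months and 9.95 and 11.12 at 6 months, a change to 6 months of 1.63 ± 0.40 (SE, adjusted p = 0.00256). H2-Ob was 4.31 and 5.43, 5.14 and 6.15 and 5.79 and 7.70, a change of 1.87 ± 0.41 (SE, adjusted p = 0.00111). H2-DMa changed by 1.82 ± 0.30 (SE, adjusted p = 6.83e-05), Cd74 by 1.23 ± 0.37 (SE, adjusted p = 0.0114), H2-Ab1 by 1.11 ± 0.35 (SE, adjusted p = 0.0154) and H2-Oa by 1.09 ± 0.34 (SE, adjusted p = 0.0135). The second probe set of H2-DMa gave 0.13 (adjusted p = 0.782). It was dim in fibroblasts, at 5.30 ± 0.25 (SD, n = 6), below the pooled median of 5.66. H2-Eb1 was 7.26 and 7.87 at 1 month, 7.33 and 9.13 at 3 months and 7.54 and 8.62 at 6 months, a change of 0.51 ± 0.39 (SE, adjusted p = 0.32) that did not pass. Ciita was 4.92 and 4.86 at 1 month, 4.52 and 5.24 at 3 months and 4.65 and 5.31 at 6 months, with overlap between all ages, a change of 0.09 ± 0.31 (SE, adjusted p = 0.854). Of the other class II genes H2-DMb2, H2-Ea and H2-Eb2, limma called 0 of 3, with 0 at an unadjusted p under 0.05 and a median change of -0.04. From 1 to 3 months H2-Ab1 and H2-DMa passed, 2 of 8 where 10.1% of all genes rose. That count was 0 without the first 1-month array or the second 3-month array, and 5 without the first 3-month array. From 3 to 6 months limma called 0 members, with 2 at an unadjusted p under 0.05 and 16.2% of all genes called. These changes ran from -0.50 ± 0.35 for H2-Ab1 to 1.09 ± 0.41 for H2-Ob (SE).

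Marker levels also differed among the fibroblast arrays by age. Fibroblast markers averaged 12.86, 11.83 and 10.71 at 1, 3 and 6 months, and thymocyte markers 9.42, 10.31 and 10.82. B cell markers were 5.82 and 6.04 at 1 month, 6.09 and 6.59 at 3 months and 6.08 and 6.78 at 6 months. In the second 3-month and second 6-month arrays, B cell markers and every member were higher than in the other fibroblast arrays. The 3′ minus 5′ control was 3.15 and 2.37 at 1 month, 2.28 and 1.94 at 3 months and 1.86 and 1.72 at 6 months. DC markers averaged 6.49 at 1 month and 6.21 at 6 months. The second 6-month array had the lowest fibroblast markers, 9.52, and the highest value of every member but H2-Ab1 and H2-Eb1. Without that array 1 of 8 members was called from 1 to 6 months, without the first 1-month array 2 were, with only the fibroblast arrays fitted 0 were, and with array weights 3 were. The part of other cells and of RNA quality in these changes was not tested.

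**Figure D5:**
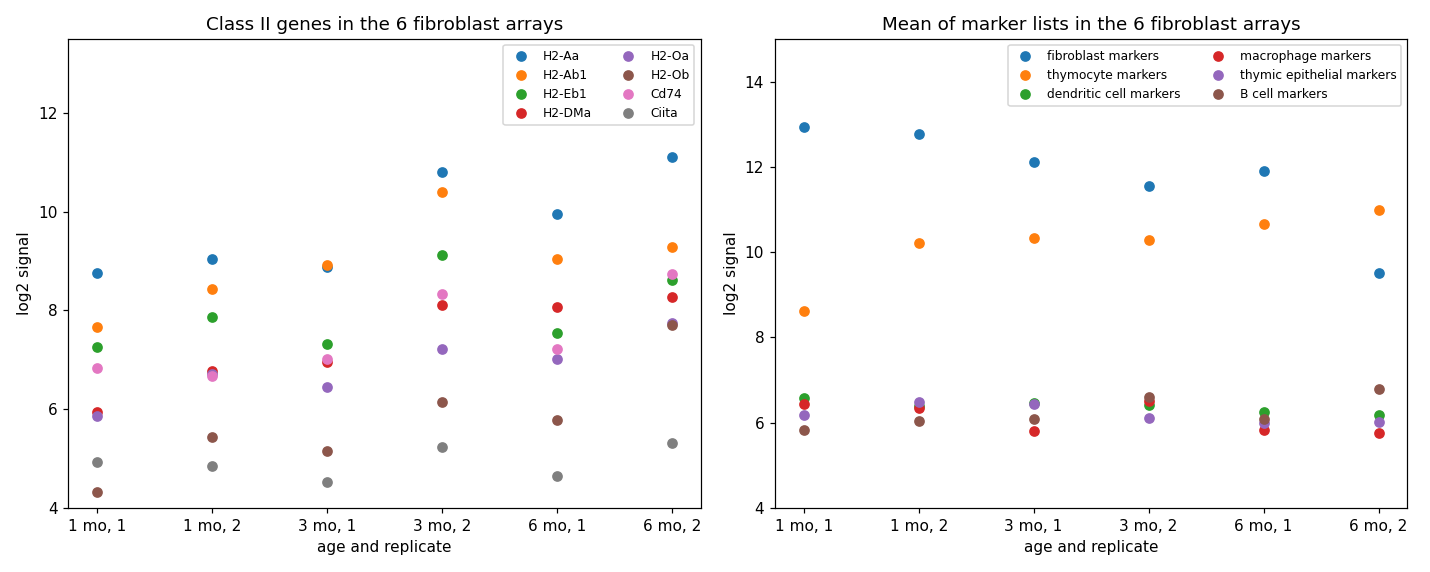
Log2 signal of the 8 class II genes (left) and mean log2 signal of 6 marker lists (right) in the 6 fibroblast arrays, by age and replicate. The second 6-month array has the lowest fibroblast marker mean, 9.52, the highest B cell marker mean, 6.78, and the highest value of every member but H2-Ab1 and H2-Eb1.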

How the data were processed

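RNA of 36 sorted samples was measured on Affymetrix whole-genome mouse arrays. The authors deposited 1 log2 signal for each probe set and array. The raw arrays went through Gene Expression Commons for scaling, as the series' design text states. GCRMA appears as a tool, per the submitters' processing notes, without version or settings. That the scale is log2 was inferred from the values, which ran from 2.62 to 14.58. Background correction and probe summary can compress differences of very dim and very bright probe sets.

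Of 45101 probe sets, 64 controls, 932 with several symbols and 9160 with none were left out. For each of 18193 genes the probe set of highest mean was kept, and the 14495 genes above the pooled median (5.66) in at least 2 arrays were tested. Groups came from the labels. A model with 1 mean for each of 18 groups was fitted with limma 3.58.1 in R 4.3.3 (18 residual degrees of freedom, moderation with an intensity trend), with Benjamini-Hochberg adjustment over all genes. Populations were called at an adjusted p under 0.05 and at least 2-fold, ages at an adjusted p under 0.05. The scripts were tested on simulated data. Precision is set by how few arrays a group has.

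The members, gene lists and tests were chosen with earlier results of these data known. The naming rule covered all 8 members, up to 4 called genes of the largest difference per pathway list and the 5 genes most like each profile. Where members did not pass, some are given by their range or count alone. H2-DMb2 is also given in comparisons where it was not called. Csf1r, Cd80, H2-Ea and the levels of other single marker genes were named after their values were seen. Gene coordinates and promoter sequences are from RefSeq on GRCm38.p6, and promoter entries matched 5 of 8 members, all but H2-Ab1, Cd74 and Ciita. Alternatives were other scalings, probe sets, filters, variance models, sets of arrays, thresholds and a replicate block.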

Additional observations from a re-analysis of the deposited data

Results flagged for a closer look

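The change with age of H2-Oa differed between populations (adjusted p = 0.0417, limma's moderated F-test over 10 interaction contrasts), and so did that of H2-Ab1 (adjusted p = 0.0488). The largest adjusted p with 1 array left out was 0.0951 for H2-Oa and 0.199 for H2-Ab1. Of 48 groups of 6 arrays, 1 for each member and population, 0 had a highest or lowest array apart from the rest by Dixon's criterion, which chance meets in about 1 of 20 groups.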

How the results depend on the processing

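Counts of members or pathway genes called were within 1.5 times of the reported count in 811 of 916 recomputations. A 4-fold threshold left 0 members in mTEChi minus mTEClo and in mTEChi minus DC, and 1 in epithelial minus DC. It left 4, 5, 2, 2, 4, 6 and 9 pathway genes in mTEChi minus mTEClo, cTEC minus mTEChi, cTEC minus mTEClo, Sirpa+ minus Sirpa- DC, fibroblast minus cTEC, mTEChi minus DC and epithelial minus DC (10, 14, 6, 6, 15, 15 and 17 at 2-fold). With only the compared populations fitted, 0 members passed in fibroblasts from 1 to 3 and from 1 to 6 months, with 4 pathway genes (19 reported). In that fit 0 pathway genes passed in mTEChi from 1 to 6 months (9 reported). It called 1 member in cTEC from 1 to 3 and from 3 to 6 months, 1 in Sirpa+ DC from 1 to 6 months, 3 and 1 in Sirpa- DC from 1 to 6 and from 3 to 6 months, and 2 for the epithelial minus DC change. Without the fibroblast arrays, 1, 5, 1 and 1 members passed in cTEC (1 to 6 months), mTEChi (1 to 6), mTEClo (1 to 3) and Sirpa+ DC (1 to 6), and 2 for the epithelial minus DC change. Array weights gave 3 members in fibroblasts, 3 in Sirpa+ DC and 1 in Sirpa- DC from 1 to 6 months, 2 for the epithelial minus DC change and 1 pathway gene in mTEChi. Asking for 2-fold with age left 11 pathway genes in fibroblasts, 4 in mTEChi and 0 members over the mean of populations from 1 to 6 or from 3 to 6 months. The mean of all probe sets gave 1 member each in cTEC and Sirpa+ DC from 1 to 6 months, the mean from 3 to 6 months and the epithelial minus DC change. Quantile normalization gave 1, 3 and 0 members over the mean of populations (1 to 3, 1 to 6 and 3 to 6 months), 1 for the epithelial minus DC change and 1 in the interaction test. The interaction test gave 1 member with no filter, no trend or robust moderation. H2-DMa turned to -0.0818 from 1 to 6 months over the mean of populations on its second probe set. On its second-brightest probe set Ciita passed from 1 to 6 months in mTEChi, in Sirpa+ DC and over the mean of populations. It passed in the interaction test as well. The cause of these changes was not tested.

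Replicate numbers were not taken to pair the samples, since not every pair of same-numbered samples correlated above 0.1: deviations of same-numbered samples of an age correlated at -0.07 to 0.42, over 0.1 in 4, 10 and 3 of 15 pairs at 1, 3 and 6 months. With the replicate block as a fixed term 1 member passed in mTEChi from 1 to 6 months (H2-Oa, adjusted p = 0.0453) and 1 over the mean of populations from 1 to 3 months, and with age and number as a random block 1 from 3 to 6 months, where H2-Aa was at adjusted p = 0.0664, and Cd74 from 1 to 6 months was at adjusted p = 0.057. In the interaction test the fixed block left 2 members called, with H2-Ab1 at adjusted p = 0.0527 and H2-Ob at 0.0485.

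With 1 array left out in turn (its partner then taken to vary like the other groups), members called ranged from 1 to 3 for epithelial minus DC, from 0 to 5, 1 to 6 and 0 to 3 in fibroblasts (1 to 3, 1 to 6 and 3 to 6 months), from 0 to 1 in mTEChi (1 to 6 and 3 to 6 months), from 0 to 1 and 1 to 4 over the mean of populations (1 to 3 and 3 to 6 months), from 0 to 1 for the epithelial minus DC change and from 0 to 5 in the interaction test. Pathway genes ranged from 9 to 20 in fibroblasts and 4 to 8 in mTEChi from 1 to 6 months. The count from 3 to 6 months over the mean of populations fell to 1 without the second 3-month mTEClo, second 3-month or first 6-month Sirpa+ DC, first 3-month or second 6-month fibroblast array, and was 4 without the second 3-month or first 6-month fibroblast array. The 6 arrays per population and 2 per age limit how small a difference can pass.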
